A study of Mus musculus with 72 samples.

Results

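The authors' deposited table for early life stress (ELS) followed by subthreshold defeat lists stretches of the mouse genome at which monomethylation of lysine 27 of histone H3 (H3K27me1) differed from standard-reared controls. All of its rows on autosomes are described here, 9365 of 10234 sites in that table and of 36113 sites in the 5 differential tables of the series. A site is 1 or more merged windows of 1000 bp, and the sites were 1000 to 2900 bp long. Direction was taken from the authors' group means, and sites whose signal exceeded the IgG background in at least 1 group (enrichment above 1) were kept apart from the others. The authors' adjusted p was below 0.05 at 9053 of the 9365 sites, 96.7% of them, because the table lists windows that had already passed the authors' limit. These 9053 are the called sites below.

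The study profiled H3K27me1, H3K27me2 and IgG by CUT&RUN, in which a nuclease guided by an antibody releases the DNA around a chromatin mark, in 72 samples of nucleus accumbens from adult wildtype male mice. The first group, ELS subthreshold defeat, had early life stress and later a mild defeat exposure (libraries 40, 44 and 48). The second, standard-reared control, had neither (libraries 37, 41 and 45). A separate cohort of chronic social defeat gave susceptible, resilient and control mice with 4 H3K27me1 libraries each, which serve below for comparison. Rearing and defeat both differ between the ELS subthreshold defeat and the control libraries, so their parts cannot be told apart, and libraries of either exposure alone were not analysed here. The labels do not say whether a library is 1 animal or a pool, so the spread between these libraries may be technical. The p-values of the limma fit measure a change against that spread. The authors' deposited p did not follow it closely, since their adjusted p was below 0.05 at 89 autosomal sites where the groups overlapped. The table holds no RNA levels, so the tissue could not be checked against marker expression.

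H3K27me1 is placed by Polycomb repressive complex 2 (PRC2), whose catalytic subunits are Ezh1 and Ezh2, and is the first step towards H3K27me2 and the repressive H3K27me3. Unlike the trimethyl form, it is known from mouse cells as a mark found within the bodies of transcribed genes. The nucleus accumbens is a ventral striatal region of motivation and reward, made up mostly of medium spiny neurons.

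The 6 libraries averaged 5.0 to 7.78 reads per 1000-bp bin per the file headers, with 5.0, 6.44 and 6.12 in ELS subthreshold defeat libraries 40, 44 and 48 and 5.4, 5.89 and 7.78 in control libraries 37, 41 and 45. Median reads per called site before scaling were 32 to 40 in the ELS subthreshold defeat libraries and 26 to 33 in the control libraries. Values per library below are the authors' normalised reads, that is reads divided by a library constant.

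Sequence is shown for promoters that lie whole inside a called site, to show the range of CpG content among them. Each line gives the 250 bases before a transcription start from RefSeq (GRCm38.p6, the build of the files), 5′ to 3′ on the gene's strand, with CG pairs in capitals. The first 3 lay in higher sites and the last 3 in lower sites. They were chosen after seeing the data, by smallest adjusted p among promoters of genes with an established name in sites that changed by at least 0.5 on the log2 scale without overlap of the groups, 2 and 2 from sites with enrichment above 1 and 1 and 1 (Nktr and Zmynd8) from the others.
Ppbp, chr5:90768268-90768517, plus strand: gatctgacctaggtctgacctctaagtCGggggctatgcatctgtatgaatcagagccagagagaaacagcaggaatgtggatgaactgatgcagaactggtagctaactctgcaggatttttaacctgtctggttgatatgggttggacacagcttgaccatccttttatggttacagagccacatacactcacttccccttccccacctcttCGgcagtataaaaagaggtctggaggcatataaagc
Guca2b, chr4:119658946-119659195, minus strand: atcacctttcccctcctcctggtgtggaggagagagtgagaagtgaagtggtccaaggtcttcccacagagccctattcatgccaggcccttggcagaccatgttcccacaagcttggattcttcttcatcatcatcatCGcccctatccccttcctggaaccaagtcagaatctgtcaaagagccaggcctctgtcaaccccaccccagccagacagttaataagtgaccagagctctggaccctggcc
Nktr, chr9:121718931-121719180, plus strand: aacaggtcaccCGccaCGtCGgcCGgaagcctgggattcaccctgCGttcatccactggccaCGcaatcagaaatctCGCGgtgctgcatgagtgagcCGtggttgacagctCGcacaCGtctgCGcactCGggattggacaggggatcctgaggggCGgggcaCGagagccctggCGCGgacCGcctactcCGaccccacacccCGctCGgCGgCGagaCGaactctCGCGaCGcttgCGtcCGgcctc
Prh1, chr6:132569592-132569841, plus strand: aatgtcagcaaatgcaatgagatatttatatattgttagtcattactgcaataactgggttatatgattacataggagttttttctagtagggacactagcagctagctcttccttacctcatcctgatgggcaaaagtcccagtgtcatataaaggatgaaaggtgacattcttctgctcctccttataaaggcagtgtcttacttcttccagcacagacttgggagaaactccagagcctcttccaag
Olfr1109, chr2:87093396-87093645, minus strand: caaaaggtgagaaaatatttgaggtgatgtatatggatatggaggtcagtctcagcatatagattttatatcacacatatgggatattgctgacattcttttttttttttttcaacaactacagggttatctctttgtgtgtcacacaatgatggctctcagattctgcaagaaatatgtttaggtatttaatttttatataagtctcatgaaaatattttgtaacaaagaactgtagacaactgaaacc
Zmynd8, chr2:165879531-165879780, minus strand: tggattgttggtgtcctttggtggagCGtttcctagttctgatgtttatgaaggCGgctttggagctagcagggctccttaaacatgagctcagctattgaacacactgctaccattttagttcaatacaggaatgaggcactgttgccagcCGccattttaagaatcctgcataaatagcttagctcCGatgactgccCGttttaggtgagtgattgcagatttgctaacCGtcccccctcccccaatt

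Ppbp encodes a platelet chemokine and Guca2b the gut peptide uroguanylin, and their promoters hold 2 and 1 CG pairs. Nktr encodes a cyclophilin-related protein, and its promoter holds 29 CG pairs at a GC content of 67.2%. The promoters of Prh1, a salivary proline-rich protein gene, and Olfr1109, an olfactory receptor gene, hold 0 CG pairs, and that of Zmynd8, a chromatin reader gene, holds 6. The site over the Nktr promoter had 45.9, 42.9 and 58.3 normalised reads in ELS subthreshold defeat libraries 40, 44 and 48, against 17.8, 18.5 and 27.9 in control libraries 37, 41 and 45. All 3 stressed libraries lay above all 3 controls (log2 change 1.2 in the authors' deposited table), although the signal stayed below IgG, with an enrichment of 0.31 in ELS subthreshold defeat and 0.14 in control. The site over the Zmynd8 promoter had 19.5, 12.1 and 16.2 normalised reads in ELS subthreshold defeat and 26.7, 34.02 and 39.2 in control, so the groups were again apart, in the other direction (log2 change -1.06). At the Prh1 promoter the values were 20.6, 18.7 and 17.3 in ELS subthreshold defeat and 40.5, 47.6 and 32.3 in control (log2 change -1.09).

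H3K27me1 was higher after ELS and subthreshold defeat than in standard-reared controls at 6276 called sites and lower at 2777, so that 69.3% of called sites were higher (95% Clopper-Pearson interval 68.4% to 70.3%, which covers counting error only). Of all autosomal sites in the table, 67% were called higher and 29.7% called lower. The median log2 change was 0.98 among higher and -0.95 among lower sites, and 4095 sites changed by at least 1 on the log2 scale. Since the tissue is bulk, fewer cells of a type and less mark per cell cannot be told apart. The ELS subthreshold defeat and control libraries did not overlap at 8964 called sites, 99% of them. The share was 98.8% over all autosomal rows and 92.0% among the 312 rows that were not called. The authors' test chose the rows from the same 6 libraries, which largely fixes these shares, so they are no separate support. A limma fit across the 6 libraries (log2 of normalised reads + 1) put 9263 autosomal rows past an adjusted p of 0.05, 6421 higher and 2842 lower, but these rows had been selected for a difference, so the fit is no separate support. When the libraries were instead scaled by median-of-ratios size factors over the same rows, the median log2 change of all rows dropped to 0.23 against 0.86, and 3533 rows passed, 556 higher and 2977 lower, while 67.2% of called sites still had a higher mean in ELS subthreshold defeat.

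Sites with enrichment above 1 numbered 6803, of which 4610 were higher (67.8%) and 2193 lower. At the higher ones the median was 43.6, 42.9 and 47.5 normalised reads in ELS subthreshold defeat libraries 40, 44 and 48, against 22.7, 23.3 and 24.4 in control libraries 37, 41 and 45. At the lower ones it was 28.7, 28.9 and 29.1 normalised reads in ELS subthreshold defeat, against 55.3, 54.4 and 55.8 in control. No library stood apart from its group in either set. The other 2250 sites never exceeded IgG, and 74.0% of them (1666) were higher. The limit itself divided nothing sharply: among 484 sites within 0.05 above it the higher share was 74.8%, and among 486 sites at it or less than 0.05 below it was 74.1%.

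**Figure D1:**
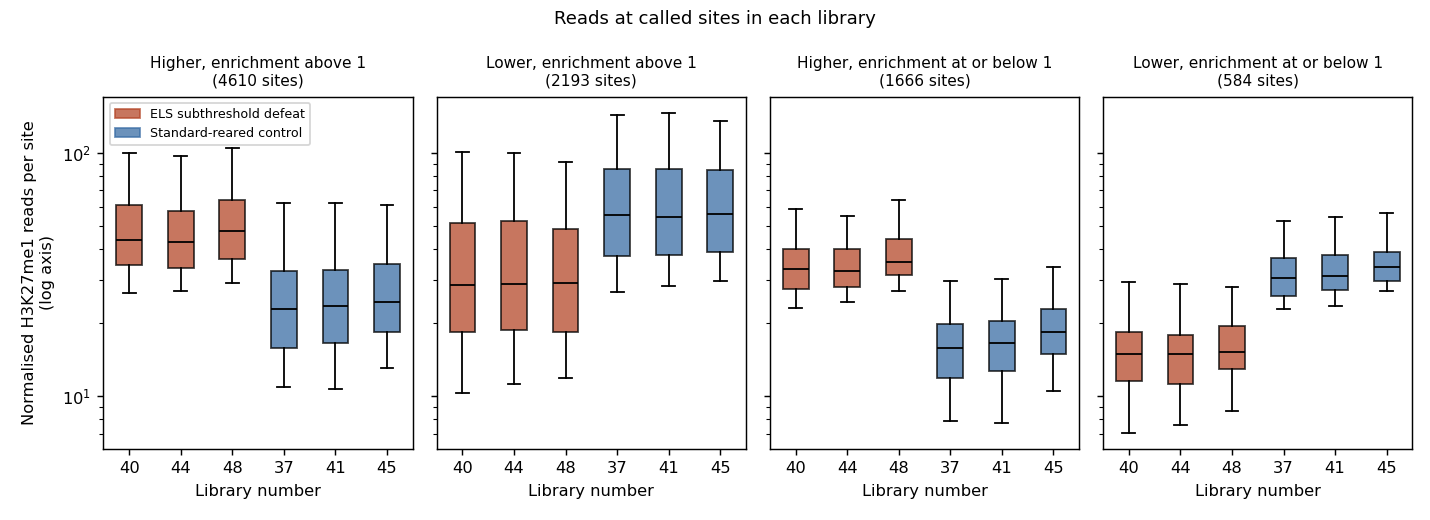
Normalised H3K27me1 reads per called site (log axis) in each library, for higher and lower sites with enrichment above 1 and at or below 1; boxes span the middle 50% of sites, lines mark medians and whiskers the 5th to 95th percentile. In every panel the 3 ELS subthreshold defeat libraries (left) have medians on 1 side of the 3 control libraries (right), as the choice of the sites requires.

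The excess of higher sites was found at weakly and moderately marked sites and not at the strongest. With called sites divided into 5 equal classes by mean reads, higher sites made up 68.9%, 76.6%, 75.4% and 74.0% in the 4 lower classes and 51.7% in the top class, which began at 51.7 reads. With median-of-ratios scaling the top class had 41.2% and the other classes did not move. Among 1478 sites with enrichment above 2, 735 were higher and 743 lower. Among 1895 sites with enrichment above 1 in both groups, 1014 (53.5%) were higher. The size of the change ran the other way, with a median absolute log2 change of 1.15 in the lowest class of reads and 0.73 in the top class.

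The IgG background, taken as signal over enrichment from the deposited values, was close to equal in both groups over all called sites, with a median log2 ratio of 0.01 for ELS subthreshold defeat over control. It was -0.05 at higher and 0.05 at lower sites with enrichment above 1. At sites with enrichment at or below 1 it moved with the mark, at 0.18 for higher and -0.18 for lower sites, and IgG was higher in ELS subthreshold defeat at 72.9% of those higher sites and 31.8% of those lower sites. Enrichment over IgG moved in the same direction as the signal at 98.5% of called sites. The part of IgG in the result was not tested, and the limit of 1 is itself set by IgG.

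Single sites with the smallest adjusted p were strongly marked and changed by less than 2-fold. Taf4 encodes a subunit of the general transcription factor TFIID. Its site (chr2:179920501-179922200, mm10, exonic) had 144, 163 and 146 normalised reads in ELS subthreshold defeat libraries 40, 44 and 48, against 93.9, 101.1 and 76.7 in control libraries 37, 41 and 45. The lowest stressed library was well above the highest control, and limma gave a log2 change of 0.74 ± 0.13 (SE, n = 3 per group; authors' adjusted p = 5.38e-07). Egln1 encodes the oxygen sensor that hydroxylates HIF, and its intronic site (chr8:124926901-124928200) had 147, 153 and 167 normalised reads in ELS subthreshold defeat and 113, 112 and 93.3 in control (log2 change 0.55 ± 0.13, authors' adjusted p = 5.38e-07). Dpp7, a lysosomal peptidase gene, had 136, 133 and 137 normalised reads in ELS subthreshold defeat and 95.8, 94.3 and 76.7 in control (log2 change 0.61 ± 0.14). Inpp1, of inositol phosphate recycling, had 155, 144 and 159 against 113, 116 and 93.3 in control (log2 change 0.51 ± 0.13). At each of these 4 sites control library 45 was the lowest of the 6 and the groups did not overlap. With median-of-ratios scaling, whose shift of the median is given above, Taf4 stayed above 0 without passing limma's threshold, and Dpp7, Egln1 and Inpp1 were at log2 changes of -0.027, -0.083 and -0.13.

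Among lower sites the same order, in which the 33 tied at the smallest adjusted p were taken by size of change, named Adgrl3, Btaf1, Nsd1, Sp4, Srgap2, Usp34, Ncoa6 and a site inside both Lysmd4 and Mef2a. Adgrl3 encodes latrophilin-3, an adhesion receptor at synapses. Its leading site (chr5:81557201-81558600, intronic) had 98.6, 85.9 and 89.5 normalised reads in ELS subthreshold defeat libraries and 139, 150 and 152 in control libraries (log2 change -0.68 ± 0.13, authors' adjusted p = 5.38e-07). Nsd1 encodes an H3K36 methyltransferase, and its site (chr13:55268201-55269700, exonic) had 88.3, 84.0 and 86.3 normalised reads in ELS subthreshold defeat and 145, 126 and 128 in control (log2 change -0.62 ± 0.14). Btaf1, which removes TATA-binding protein from DNA, had 130, 126 and 125 normalised reads at its leading site in ELS subthreshold defeat and 215, 184 and 195 in control (log2 change -0.64 ± 0.11). The groups were apart at all 3 sites, and the stressed libraries at Nsd1 and Btaf1 differed among themselves by only a few reads.

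At sites with enrichment at or below 1 the changes were larger and the reads fewer. Galnt15, a glycosyltransferase gene, had 28.7, 25.2 and 33.4 normalised reads in ELS subthreshold defeat and 8.89, 8.75 and 11.3 in control (log2 change 1.497 ± 0.31, authors' adjusted p = 0.000244). Hcrtr2, the type 2 orexin receptor gene, had 41.3, 36.4 and 39.9 in ELS subthreshold defeat and 79.04, 69.97 and 81.1 in control (log2 change -0.95 ± 0.18, authors' adjusted p = 6.13e-05). Eva1c, a gene for a Slit-binding membrane protein, had 10.3, 7.47 and 13.0 in ELS subthreshold defeat and 28.7, 27.2 and 33.1 in control (log2 change -1.47 ± 0.30). None of these sites reached the IgG level in either group.

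**Figure D2:**
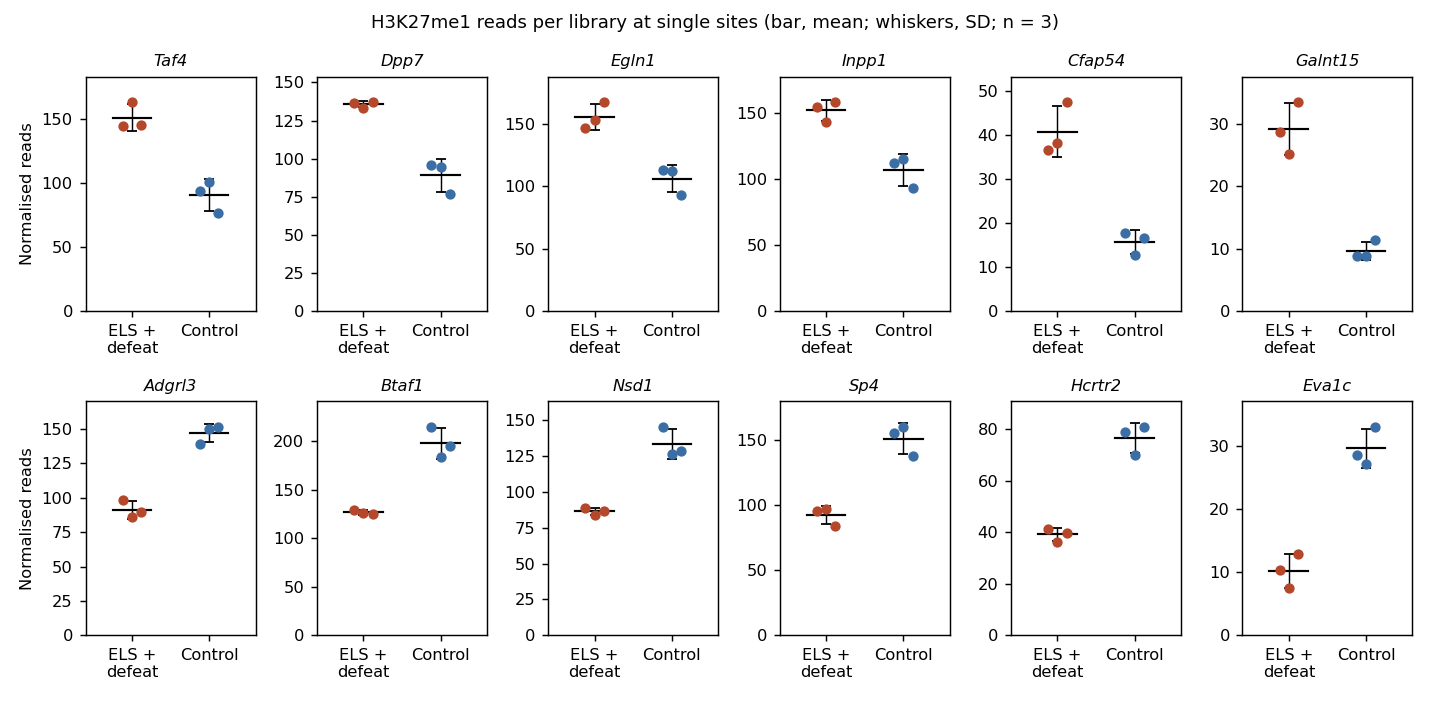
Normalised H3K27me1 reads per library at 12 single sites, ELS subthreshold defeat (ELS + defeat) left of standard-reared control; points are libraries, bars the mean and whiskers the SD (n = 3). Upper row: higher sites in Taf4, Dpp7, Egln1 and Inpp1 and, with enrichment at or below 1, Cfap54 and Galnt15; lower row: lower sites in Adgrl3, Btaf1, Nsd1 and Sp4 and, at or below 1, Hcrtr2 and Eva1c; the groups are apart in each panel.

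The deposited p did not follow the size of the change closely. The smallest adjusted p, 5.38e-07, was shared by 46 sites, 13 higher and 33 lower, with absolute log2 changes of 0.13 to 0.74 and 91.6 to 252 mean reads. Of the called sites, 105 changed by less than 0.3 on the log2 scale, all with at least 149 mean reads, and at 60 of them the groups overlapped. The limma fit passed 27 of these 105. At the Zfp981 site, with 172, 177 and 189 normalised reads in ELS subthreshold defeat and 149, 168 and 162 in control, the log2 change was 0.17 ± 0.11 and limma's adjusted p was 0.129. At both called sites in Duxf3, a gene of multicopy repeats where the counting could split reads between copies, the groups overlapped. The higher site had 247, 232 and 255 in ELS subthreshold defeat and 232, 241 and 232 in control. The lower site had 327, 347 and 332 in ELS subthreshold defeat and 350, 351 and 327 in control. These sites overlap each other in position, although they were called in opposite directions.

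Most called sites lay outside genes or in introns. Intergenic sequence held 52.2%, introns 35%, exons 8.98% and promoters (within 1000 bp of a transcription start) 3.80%. Higher sites were the majority in each class, at 71.8% of intergenic, 66.1% of intronic, 63.3% of exonic and 79.9% of promoter sites (275 of 344). The promoter sites with enrichment above 1 were higher in 125 of 169 cases (74.0%), and those at or below 1 in 150 of 175 (85.7%). Promoters made up 9% of higher sites with enrichment at or below 1 and 2.71% of higher sites above 1.

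Promoters inside higher sites held more CG pairs in the median than the few inside lower ones, and the difference lay mainly at sites below IgG. The 106 promoter windows that lay whole inside a higher site had a median of 14 CG pairs and 55.4% GC, and the 9 inside a lower site had a median of 2 CG pairs and 41.2% GC. Over all 31396 autosomal windows of the same 250 bases, read on both strands alike since CG is its own complement, the medians were 6 CG pairs and 52.4% GC. At least 10 CG pairs were held by 57.5% of windows inside higher sites, 0% of the 9 inside lower sites and 38.3% of all windows. The CG-rich promoters came from sites below IgG, where 78 windows inside higher sites had a median of 16 CG pairs, as at Nktr. The 28 inside higher sites with enrichment above 1 had a median of 2, as at Ppbp and Guca2b, which is below that of all windows, and the 4 inside lower sites above 1 had a median of 0.5.

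Called sites fell in 2831 of 20780 autosomal protein-coding genes, 13.6%. A higher site was found in 2034 genes (9.79%), a lower site in 1128 (5.43%), and both in 331. Genes with a site were long, with a median of 90.8 kb against 17.6 kb for all genes, and the share of genes with a site went up from 1.80% in the shortest to 43.7% in the longest of 5 equal classes. Direction moved with base composition. In 5 equal classes of genes by GC content of their longest transcript, from low to high, the sites in the genes were higher in 47.9%, 60.9%, 70.7%, 81.2% and 82.6%. The same shares at sites with enrichment above 1 were 43.9%, 59.2%, 69.4%, 80.3% and 82.5%. Among sites of at least 50 mean reads the range was wider, at 26.8%, 45%, 57.6%, 74.9% and 81.8%. In the chronic defeat cohort, where other libraries and other controls were used, the susceptible against control H3K27me1 sites ran the other way in the same classes, with 80.8%, 60.2%, 43.3%, 16.7% and 6.12% higher. The median log2 ratio of IgG, ELS subthreshold defeat over control, was between 0.00 and 0.06 in all 5 classes, and the part of base composition in the sequencing of each library was not tested.

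**Figure D3:**
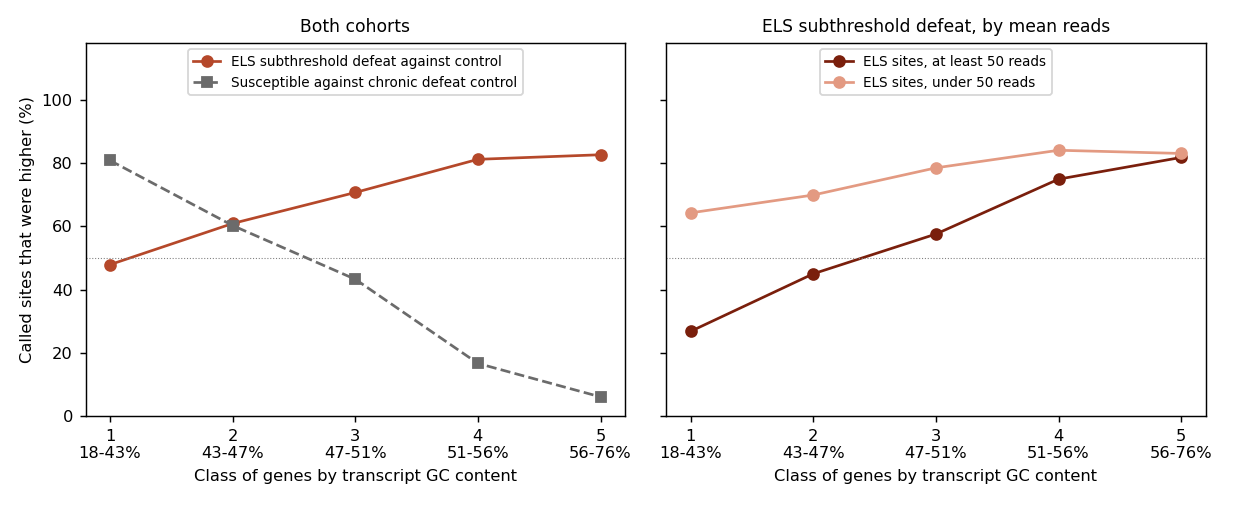
Percent of called H3K27me1 sites that were higher, in 5 equal classes of genes by the GC content of their longest transcript (class limits under the axis). Left, ELS subthreshold defeat sites go up from 47.9% to 82.6% across the classes and susceptible sites of the chronic defeat cohort go down, to 6.12% in the last class; right, ELS subthreshold defeat sites of at least 50 mean reads and of fewer.

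Of 14 genes with at least 10 called sites, 2 held sites of 1 direction alone, and of 73 with at least 6 sites, 14 did. All 11 sites in Trappc9, a gene of vesicle trafficking and NF-kappaB signalling, were higher, with log2 changes of 0.82 to 1.26. The median over its sites was 38.99, 42.9 and 49.6 normalised reads in ELS subthreshold defeat libraries 40, 44 and 48, against 24.7, 21.4 and 25.3 in control libraries 37, 41 and 45. Pde4d, a cAMP phosphodiesterase gene, was higher at 10 of 10 sites (log2 0.79 to 1.14). Ank1, the ankyrin-1 gene, was higher at 9 of 9 sites within 87.7 kb, Ptprg, a receptor phosphatase gene, at 9 of 9, and Grip1, whose protein scaffolds AMPA receptors, at 7 of 7. Pcdh15, a protocadherin gene known from hair cells, held 20 sites, the most of any gene with an established name, and 16 were higher. With median-of-ratios scaling the leading sites of Trappc9, Pde4d and Pcdh15 were at log2 changes of 0.45, 0.49 and 0.40. These did not pass limma's threshold, whereas the leading sites of Ank1 and Ptprg, at 0.58 and 0.60, still passed. The scaling factors came from rows selected for a difference and lowered all of these changes by a similar amount. Ank1 and Ptprg had the larger changes before scaling, so passing does not set these genes apart.

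Other genes were lower throughout. Cntn4, which encodes the axonal adhesion protein contactin-4, was lower at 8 of 8 sites, with log2 changes of -1.06 to -0.71. The median over its sites was 37.3, 41.1 and 38.8 normalised reads in ELS subthreshold defeat and 72.6, 59.3 and 67.1 in control, without overlap at any of the 8. Btaf1 was lower at 8 of 8 sites within 32.7 kb, with 108 to 346 mean reads and log2 changes of -0.71 to -0.43. Adgrl3 was lower at 6 of 6 sites and Nsd1, the 1 gene with a site among 7 of H3K36 methyltransferases, at 4 of 4, while Kcnip4, a gene for an accessory protein of A-type potassium channels, was lower at 7 of 8. Cntnap2, Lrp1b and Ptprd, 13 sites each, were mixed, with 4, 4 and 5 higher. Genes in this and the preceding paragraph were picked for how many sites they held or for their direction after the values were seen, and overlapping genes could not be told apart.

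**Figure D4:**
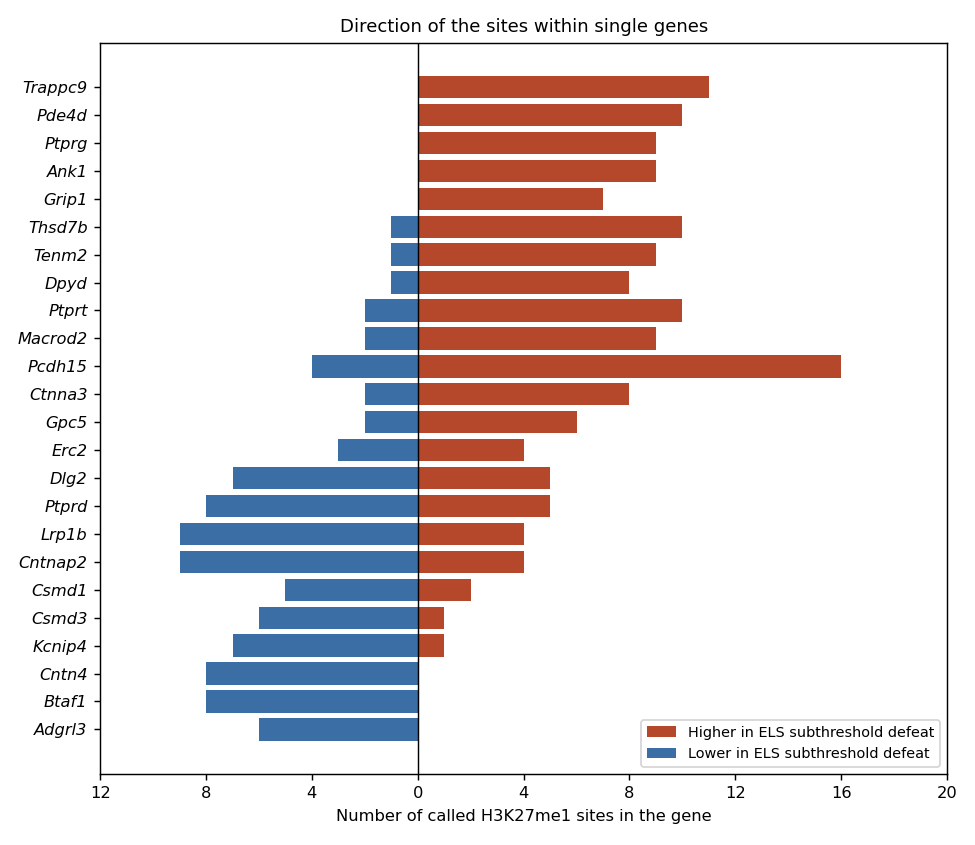
Number of called H3K27me1 sites per gene, higher (right bars) or lower (left bars) in ELS subthreshold defeat than in standard-reared control. Drawn are 24 of the 73 genes with at least 6 sites, ordered by the share of higher sites. They were picked after the values were seen and do not stand for the class. Of the 73, 14 held higher sites alone or lower sites alone. Trappc9, Pde4d, Ptprg, Ank1 and Grip1 hold higher sites alone; Cntn4, Btaf1 and Adgrl3 hold lower sites alone.

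Genes of the synapse held sites in both directions, and fewer of them higher than over all sites. Of 59 genes of synaptic adhesion, 38 held a called site (64.4%, against 13.6% of all genes), 26 with a higher and 24 with a lower one. Their 127 sites were higher in 55 cases (43.3%, against 69.3% of all called sites), with a median log2 change of -0.66 against 0.89. The genes are long, with a median of 291 kb, and gene length moves with the share of genes that hold a site. Tenm2, a teneurin gene, was higher at 9 of 10 sites and Cadm1, a synaptic cell adhesion gene, at 3 of 3, whereas Cntn4 and Adgrl3 were lower throughout. The 9 large genes of complement-domain proteins and lipoprotein receptors were alike in this, with 14 of 34 sites higher (41.2%). Csmd3 was lower at 6 of 7 sites and Lrp1b, a large lipoprotein receptor gene, at 9 of 13, but Csmd2 was higher at 4 of 4.

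Receptor genes differed within their family. Of 25 glutamate receptor genes, which have a median length of 319 kb, 16 held a site (64%, against 13.6% of all genes and 43.7% of the longest class), and 24 of 45 sites were higher (53.3%). Grik4, a kainate receptor subunit, was higher at 5 of 5 sites, with a leading site at 52.8, 59.7 and 67.96 normalised reads in ELS subthreshold defeat and 21.7, 21.4 and 36.6 in control (limma log2 change 1.19 ± 0.20, authors' adjusted p = 0.00174). Grm7, a presynaptic metabotropic receptor, was lower at 4 of 4 sites, with 97.5, 114 and 109 normalised reads at the leading one in ELS subthreshold defeat and 170, 185 and 175 in control (log2 change -0.72 ± 0.12, authors' adjusted p = 2.44e-06). Grin2b, an NMDA receptor subunit, was higher at 4 of 4. Of 24 genes of GABA receptors and synthesis, with a median length of 80.1 kb, 9 held a site (37.5%, against 13.6% of all genes). Of their 17 sites, 10 were higher (58.8%). Gabbr2, a subunit of the GABA-B receptor, had 2 higher and 2 lower sites. Presynaptic release genes had 19 of 35 sites higher (54.3%) and postsynaptic scaffolds 18 of 34 (52.9%), but 45.7% and 44.1% with median-of-ratios scaling. At sites with enrichment above 1 the presynaptic share was 48.4% and the postsynaptic share 55.2%.

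Signalling and channel genes were closer to the share over all sites. Of 57 genes of cAMP and calcium signalling, 25 held a site (43.9%, against 13.6% of all genes). Their median length was 122 kb, and 43.7% of genes in the longest length class held a site. In the list, 48 of 62 sites were higher (77.4%), 10 of them in Pde4d. Plcb4, a phospholipase C, was higher at 4 of 4, and Ryr2 and Adcy2, a calcium release channel and an adenylyl cyclase, at 3 of 3 each. Pde1c, a calcium-dependent phosphodiesterase, was lower at 4 of 4, and Creb1, the cAMP response transcription factor, was lower at its 1 site (104, 83.1 and 87.4 normalised reads in ELS subthreshold defeat, 121, 140 and 126 in control). Sodium and calcium channel genes had 24 of 34 sites higher (70.6%), potassium channel genes 34 of 54, axon guidance genes 42 of 65 (64.6%), and cadherins and protocadherins 31 of 57 (54.4%).

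**Figure D5:**
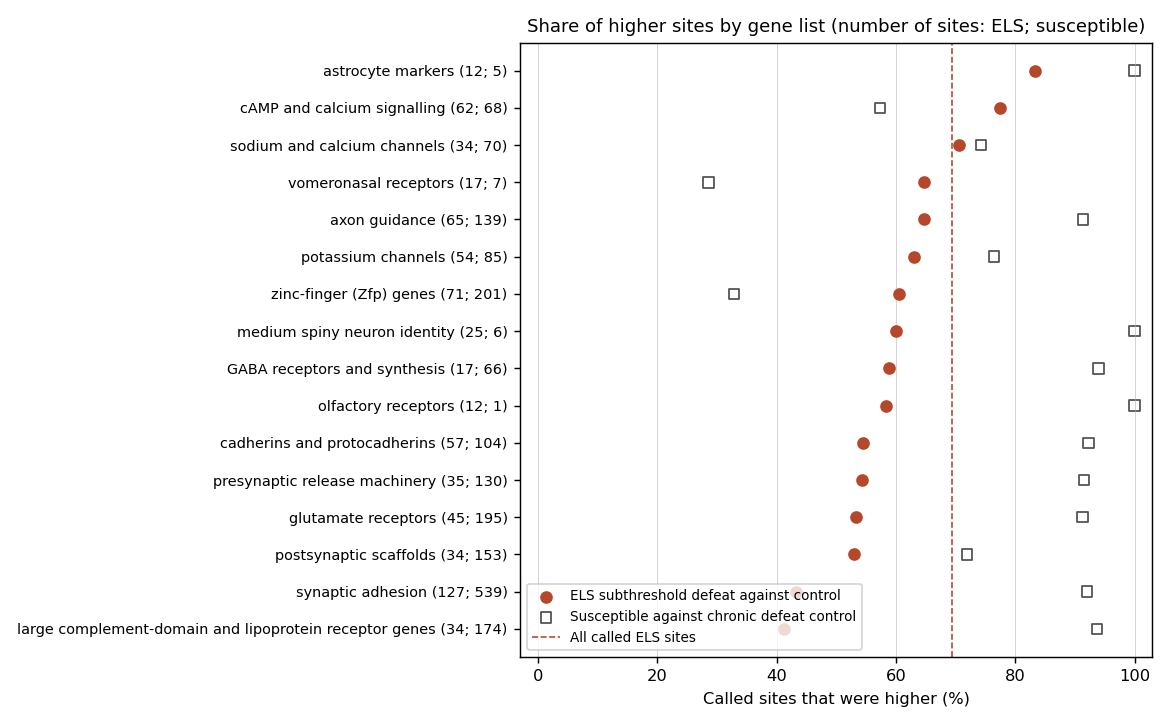
Percent of called H3K27me1 sites that were higher in ELS subthreshold defeat than in standard-reared control (filled circles) and in susceptible than in chronic defeat control mice (open squares), for gene lists with at least 10 ELS subthreshold defeat sites; the dashed line marks 69.3%, the share over all called ELS subthreshold defeat sites. Synaptic adhesion genes stand at 43.3% and cAMP and calcium signalling genes at 77.4% in ELS subthreshold defeat. The share over all called susceptible sites, 50.3%, is not drawn.

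Of 16 genes of PRC2 and other H3K27 enzymes, 4 held a site (25%, against 13.6% of all genes), with 2 of 5 sites higher (40%, against 69.3% of all called sites). At Ezh2, the methyltransferase itself, an intronic site (chr6:47562201-47563300) had 69.95, 70.9 and 76.6 normalised reads in ELS subthreshold defeat libraries 40, 44 and 48, against 37.5, 43.7 and 48.8 in control libraries 37, 41 and 45. All stressed libraries were above all controls (log2 change 0.73 ± 0.18, authors' adjusted p = 0.0129). Aebp2, an accessory subunit, was higher at 1 of 2 sites, with 84.9, 79.3 and 76.6 in ELS subthreshold defeat and 41.5, 43.7 and 51.4 in control at the leading one. With median-of-ratios scaling the log2 changes were 0.10 at Ezh2 and 0.18 at Aebp2, and neither passed limma's threshold. Mtf2, another accessory subunit, was lower, with 50.5, 56.9 and 39.9 in ELS subthreshold defeat and 78.1, 74.8 and 86.3 in control (log2 change -0.70 ± 0.17). Ehmt1, an H3K9 methyltransferase gene that was placed in this list, was lower, with 80.3, 75.6 and 69.04 in ELS subthreshold defeat and 136, 141 and 95.02 in control.

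Among markers of cell types, 12 of 30 genes of medium spiny neurons held a site (40%, against 13.6% of all genes), and 15 of 25 sites were higher (60%, against 69.3% of all called sites). At their sites with enrichment above 1, 7 of 16 were higher (43.8%). Pde10a, a striatal phosphodiesterase, was higher at 3 of 3 sites, with 35.6, 35.5 and 36.7 normalised reads in ELS subthreshold defeat and 15.8, 17.5 and 17.4 in control at the leading one (log2 change 1.04 ± 0.24, authors' adjusted p = 0.00413). With median-of-ratios scaling the Pde10a site was at 0.43 and did not pass limma's threshold. Foxp1, a striatal transcription factor, was higher at 4 of 4, whereas Oprm1, the mu opioid receptor, was lower at its 1 site, with 24.1, 27.99 and 30.2 in ELS subthreshold defeat and 46.4, 59.3 and 55.8 in control. Astrocyte markers held 12 sites in 4 of 17 genes, 10 of them higher and 8 of the 12 in Gpc5. Oligodendrocyte markers held 3 sites in 2 of 18 genes, and the single microglial site, in P2ry12, was lower. No vascular marker (of 18) and no cortical or interneuron marker (of 20) held a called site; these genes have median lengths of 44.3 and 13.7 kb, and 13.6% of all genes held one. The part of cell composition was not tested.

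Genes of stress signalling held sites about as often as all genes. Of 32 genes of glucocorticoid, stress and neurotrophin signalling, 5 held a site (15.6%, against 13.6% of all genes), and 3 of 8 sites were higher. Fkbp5, the glucocorticoid receptor chaperone, had 14.9, 24.3 and 34.5 normalised reads at the leading of its 3 sites, 2 lower and 1 higher, in ELS subthreshold defeat and 46.4, 44.7 and 54.9 in control, so that the stressed libraries spread widely below the controls (limma log2 change -1.03 ± 0.22, authors' adjusted p = 0.0104). Ntrk2, the BDNF receptor gene, was higher, with 107, 75.6 and 109 in ELS subthreshold defeat and 49.4, 66.1 and 61.02 in control, but with median-of-ratios scaling its log2 change was 0.070 and did not pass limma's threshold. Immediate early genes held 3 sites in 20 genes, with Egr1 and Atf3 higher and Dusp1 lower. The Egr1 site never exceeded IgG (enrichment 0.51 in ELS subthreshold defeat and 0.33 in control), nor did that of Dusp1 (0.45 and 0.93). With median-of-ratios scaling Egr1 and Atf3 were at log2 changes of 0.42 and 0.58 and did not pass limma's threshold, whereas Dusp1 was at -1.57. The scaling moved all 3 changes downward, so it does not set Dusp1 apart. Developmental transcription factor genes, the classic targets of H3K27me3, held 3 sites in 167 genes (2 genes with a site). Olfactory receptor genes held 12 sites in 1086 genes. The genes of these lists are short, with median lengths of 6.99 and 5.98 kb. Of all genes 5.44 to 12.2 kb long, 2.82% held a site, against 13.6% over all lengths. The part of gene length in the low counts was not tested. Of 325 vomeronasal receptor genes, 17 held a site (5.23%), and 11 of their 17 sites were higher (64.7%, against 69.3% of all called sites). Of 383 zinc-finger genes of the Zfp symbols, 53 held a site (13.8%, against 13.6% of all genes). Of their 71 sites, 43 were higher (60.6%, but 47.9% with median-of-ratios scaling). In these families near-identical copies make the counts uncertain. Of 75 ribosomal protein genes, 5 held a site (6.67%, against 13.6% of all genes), and 4 of the 5 sites were higher. Only 2 of these 5 sites had enrichment above 1, both higher. Of 80 genes in the core histone list, 2 held a site (2.5%). These were H2afy and H2afy2, which encode macroH2A variants and not canonical core histones. Both sites were higher, or 1 of 2 with median-of-ratios scaling. The other lists stayed on their side of 50% with both other scalings tried.

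Along the genome, higher sites were the majority in most places. The higher share ranged from 63.1% on chromosome 19 to 74.7% on chromosome 8. Of 194 stretches of 5 Mb with at least 20 called sites, 174 held more higher than lower sites. The densest, at 145 to 150 Mb of chromosome 4, held 55 sites with a median of 212 mean reads, against 31.6 over all called sites, and 23 were higher. It holds Zfp600, Zfp992 and Zfp933, of the zinc-finger family in which near-identical copies make the counts uncertain. The part of such copies was not tested. Chromosome 8 at 20 to 25 Mb, with Ank1, had 31 of 34 sites higher, and chromosome 1 at 45 to 50 Mb had 31 of 33. Neighbouring sites less than 10 kb apart shared a direction in 350 of 517 pairs (67.7%), and those 100 kb to 1 Mb apart in 59.4%, where the overall shares alone give 57.5%.

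The called sites were set beside those of adult chronic defeat by position. Of the 9053 called sites, 128 (1.41%) overlapped a called susceptible against control H3K27me1 site by at least 1 bp, which were 128 (1.06%) of 12119 susceptible sites, which cover 15312.5 kb. The share that unrelated sites would give was not tested. They formed 131 pairs, and 94 of these (71.8%) had opposite directions, where the shares of higher sites within the 131 pairs alone give 50.7%. Of 42 pairs higher in ELS subthreshold defeat, 34 were lower in susceptible mice, and of 89 lower ones, 60 were higher. The 55 pairs with resilient against control sites were opposite in 25 cases (45.5%); the susceptible and resilient tables share their control libraries, and the difference between them was not tested. With H3K27me2, 25 of 49 pairs were opposite in susceptible and 51 of 85 in resilient mice.

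Per the file headers, the test behind the chronic defeat calls was a G-test on summed reads, in which the spread between libraries has no part. Opposite pairs included Dpp7, Ell, Kctd8, Csmd3 and Mmp16. At the site that overlaps that of Dpp7, the susceptible libraries had 63.2 to 89.5 normalised reads (63.2, 70.4, 77.5 and 89.5) and the chronic defeat controls 87.9 to 119 (87.9, 96.6, 106 and 119), a log2 change of -0.45 in the authors' deposited table. The highest susceptible library overlapped the lowest control. At the Csmd3 site, with 107, 97.1 and 114 in ELS subthreshold defeat and 139, 149 and 127 in standard-reared control (limma log2 change -0.38 ± 0.13), the susceptible libraries at the overlapping site had 144, 149, 183 and 184 and their controls 122, 128, 134 and 138 (log2 change 0.34 in the authors' deposited table). Lower in both cohorts were sites in Btaf1, Ncoa6, Usp34, Tada2a, Fbxo3 and Btbd1. A site in Mbd5 was higher in both, and like those in Dpp7 and Ell it was lower in ELS subthreshold defeat with median-of-ratios scaling. At Ncoa6, a nuclear receptor coactivator gene, the values were 82.6, 98.9 and 90.6 in ELS subthreshold defeat and 148, 128 and 132 in standard-reared control, then 105.7, 123.4, 125.5 and 127.7 in susceptible and 160, 160, 168 and 169 in chronic defeat control libraries, with no overlap in either cohort.

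A called H3K27me1 site in both contrasts was found in 1140 genes, 40.3% of genes with an ELS subthreshold defeat site and 26.3% of the 4333 with a susceptible site. Over all 20780 genes, 20.9% held a susceptible and 13.6% an ELS subthreshold defeat site, and the share with a site goes up with gene length, which was not adjusted for. In 114 genes with at least 3 sites in each, sites were mostly higher in 57 and mostly lower in 55 for ELS subthreshold defeat, and mostly higher in 97 and mostly lower in 13 for susceptible mice. In 51 of the 114 they were mostly lower in ELS subthreshold defeat and mostly higher in susceptible mice, where the margins alone give 46.8. In 44 they were mostly higher in both, in 11 mostly higher in ELS subthreshold defeat and mostly lower in susceptible mice, and in 2 mostly lower in both. Cntn4 had 0 of 8 sites higher in ELS subthreshold defeat and 5 of 5 in susceptible mice, Adgrl3 0 of 6 and 35 of 36, Grm7 0 of 4 and 35 of 38, and Cntnap2 4 of 13 and 23 of 24. Macrod2 had 9 of 11 sites higher in ELS subthreshold defeat and 15 of 15 in susceptible mice, Dpyd 8 of 9 and 5 of 5, and Nkain3 5 of 5 and 8 of 8. Synaptic adhesion genes together had 43.3% of sites higher in ELS subthreshold defeat and 92.0% of 539 in susceptible mice. Over all called sites the shares were 69.3% and 50.3%. The high share in susceptible mice was not particular to this list. Glutamate receptors had 91.3% there, presynaptic release genes 91.5% and cadherins and protocadherins 92.3%, while postsynaptic scaffolds had 71.9% and zinc-finger genes 32.8%. The cohorts differed in depth, and their tables in the test and the number of windows adjusted for, so the 2 sets of shares are given side by side without a test.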

How the data were processed

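The CUT&RUN libraries from mouse nucleus accumbens were put on mm10. The submitters' processing notes name MACS2 2.2.6, Bowtie2 2.4.1, SAMtools 1.10, cutadapt 2.10 and Trim Galore 0.6.5 without saying what each did. Per the file headers, the authors found sites by diffReps 1.55.4 and a negative binomial test, sliding windows of 1000 bp by 100 bp, with fragments set to 100 bp and a p limit of 0.0001 per window. The deposited values per library are normalised reads, a signal that the authors made by dividing reads by a library constant, and multiplying back gave whole reads at 100% of values (tolerance 0.1). Enrichment is a deposited ratio, in which the authors set the signal of a group against its IgG. The deposited log2 fold change is ELS subthreshold defeat over control, by the authors. The deposited p-value was adjusted by the authors with Benjamini-Hochberg over 1287727 windows, per the file headers; windows outside the table were not analysed here.

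A called site, with adjusted p under 0.05, was given to each protein-coding gene it overlapped in GENCODE M21, whose build is that of the files. limma 3.58.1 (R 4.3.3, empirical Bayes with trend) was fitted over all rows on log2(normalised reads + 1), a scale that understates the change of low counts; it was tested on simulated data. An exact permutation test of 3 against 3 libraries cannot go below p = 0.1, so none is given. Means, shares and intervals used Python 3.11.15 with pandas 2.3.3, numpy 2.4.6, scipy 1.17.1 and matplotlib 3.10.9. Intervals cover counting error only.

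The members and the 27 gene lists were chosen with earlier results of these data known. Named genes had a mean of at least 10 reads and no predicted symbol, and were the 8 higher and 8 lower of smallest adjusted p (ties by size of change) with enrichment above 1, the 4 and 4 among other sites, up to 4 per list, H3K27 enzyme genes, the 10 with most sites, and the first 8 per direction overlapping a susceptible site. Other genes were chosen after their values were seen. Promoter sequence stands in for that of whole sites, which was not used here. Base composition, regions and neighbours were examined after seeing the data.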

Additional observations from a re-analysis of the deposited data

Results flagged for a closer look

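At the site in Mmp16, a matrix metalloproteinase gene, 1 of 4 susceptible libraries of the chronic defeat cohort stood apart, at 168 normalised reads with the next at 138. Its gap to the next library was 0.850 of the whole range of the group, and chance alone flags about 1 in 20 groups.

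The sex chromosomes lay outside the comparison, which is over autosomes. On chromosome X, 335 sites were called, 161 higher and 174 lower in ELS subthreshold defeat than in standard-reared control. On chromosome Y, 505 sites were called, 189 higher (37.4%) and 316 lower, of which 499 had an enrichment above 1. These shares of higher sites were below the 69.3% over autosomes; the difference was not tested, and Y sequence holds near-identical copies between which reads could be split.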

How the results depend on the processing

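Called sites numbered 4626 at an adjusted p under 0.01 and 430 (259 higher) at 0.001, against 9053; a minimum of 10 or 20 mean reads left the count within 1.5 times. The share of higher sites was 67.8% at enrichment above 1, 74.0% at or below 1, 66.98% on all chromosomes and 67.2% with median-of-ratios scaling, and 69.29% to 69.31% without each library. Enrichment above 2 left 1478 sites and above 1 in both groups 1895, against 6803. By limma, 9263 sites passed over the rows and 9246 to 9255 without each library. The shares and these counts without each library used sites selected with all 6 libraries. They could therefore move little and are no separate support. Adjusted over all windows, 8957 passed, but 5269 with mean reads per bin as constant (chosen after seeing the data) and 1180 to 5371 without each library, the lowest without control library 37; leaving out ELS subthreshold defeat library 40, 44 or 48 gave 5371, 5303 and 4390, and control library 41 or 45 gave 3686 and 4090. Median-of-ratios factors, computed over rows selected for a difference, gave 3533 over the rows and 2954 over all windows, and 63 of 131 named sites past the threshold in their direction, against 128. Under them, chosen for single sites after seeing the data, 14 higher sites reversed, to log2 changes of -0.13 (Inpp1), -0.58 (Duxf3), -0.053 (H2afy2), -0.48 (Sfi1), -0.38 (Cenpo), -0.025 (Gphn), -0.044 (Enox1), -0.027 (Dpp7), -0.28 (Mbd5), -0.47 (Zfp981), -0.32 (Pclo), -0.045 (Ell), -0.070 (Pdpr) and -0.083 (Egln1). Between 126 and 128 named sites, which were also selected with all 6 libraries, passed without each library. The calls lost were at Sfi1 (without library 37, 41 or 48), Cenpo (without 40) and Zfp993 (without 41). Pseudocounts of 0.5 and 5, the site centre in place of any overlap, an overlap of 0.5 of the shorter site (61 of 88 pairs opposite) and a promoter limit of 2000 bp (484 promoter sites) kept the other results within 1.5 times, apart from gene counts in a few lists. With the site centre, olfactory receptor genes with a site fell from 12 to 6 and ribosomal protein genes from 5 to 3. With sites of enrichment above 1 alone, ribosomal protein genes with a site fell to 2. Immediate early genes then fell from 3 to 1 and oligodendrocyte marker genes from 2 to 1. Count-based tests (edgeR, DESeq2) and TMM scaling were not run here. No paired analysis was possible because each library carries a number of its own. Depth of 5.0 to 7.78 reads per bin limits what the weakest sites show.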
